A study of Mus musculus with 9 samples.

Results

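Genes that encode neurotrophic factors and the receptors that answer nerve injury were followed in the hindlimb muscle of SMN delta 7 mice. The 9 genes were chosen by symbol from the 32594 genes of the deposited count table, and all 9 of 9 were found there: the ligand genes Bdnf, Ntf3, Gdnf and Cntf, the receptor genes Ngfr, Ntrk2, Gfra1 and Ret, and the adhesion receptor gene Ncam1. RNA was sequenced from 5 wild type (WT) and 4 SMN delta 7 (SMA) libraries of hindlimb skeletal muscle from FVB/N mice. The SMN delta 7 strain is a model of spinal muscular atrophy, in which shortage of the survival motor neuron protein SMN leads to loss of motor neurons and wasting of muscle. As background, the strain of that name lacks working mouse Smn1 and carries human SMN transgenes. The labels list no alleles and give neither age nor litter, and they do not say whether animals were pooled. Every p-value therefore measures the spread between these libraries, which may be technical in part.

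Neurotrophins are secreted growth factors that keep neurons alive and shape their synapses. Brain-derived neurotrophic factor (BDNF) and neurotrophin-4 (gene Ntf5) bind the receptor kinase TrkB (gene Ntrk2), neurotrophin-3 (gene Ntf3) prefers TrkC (gene Ntrk3), and all of them bind the p75 receptor (gene Ngfr). Glial cell line-derived neurotrophic factor (GDNF) binds the anchored co-receptor GFRA1, and the pair then activates the receptor kinase RET. Ciliary neurotrophic factor (CNTF) is a cytokine of myelinating Schwann cells. In muscle, textbook accounts place GDNF, BDNF and neurotrophin-3 among the factors that fibres and nerve sheath cells supply to motor axons, and describe NCAM and p75 as proteins that return to muscle or nerve after a nerve is cut.

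Library totals ranged from 24917665 to 35087722 counts, and levels are given as CPM, a gene's count divided by the scaled library size and multiplied by 10 to the power 6. Smn1, which checks the labels, had 11.2 to 13.8 CPM in WT and 1.40 to 2.72 CPM in SMA, so it was low in every library labelled SMA. On principal components SMA 3 and WT 5 lay farthest from their groups, and calls on the 9 genes that change without them are given as such. Libraries with more Y-linked than Xist counts numbered 4 of 5 in WT and 1 of 4 in SMA. Muscle fibre markers were abundant in every library, at 135570 to 190900 summed CPM in WT and 70667 to 84521 in SMA over 8 genes. These are bulk samples, so a change in the number of cells of a type and a change in RNA per cell cannot be told apart.

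Promoters are shown for Bdnf and Gdnf, the ligand genes that were higher in every SMA library than in any WT library. RefSeq (GRCm38.p6, the same coordinates as mm10) lists 15 promoter windows for 7 of the 9 genes, each from 250 bases before to 50 bases after a start, and 7 of these windows belong to Bdnf. Ret and Ncam1 were not matched. The windows printed are those that hold the letters TGACG on either strand, the core shared by sites for the cyclic AMP responsive factors, and capitals mark them. The motif was chosen with the sequences in view.
Bdnf, chr2:109692186-109692485, plus strand: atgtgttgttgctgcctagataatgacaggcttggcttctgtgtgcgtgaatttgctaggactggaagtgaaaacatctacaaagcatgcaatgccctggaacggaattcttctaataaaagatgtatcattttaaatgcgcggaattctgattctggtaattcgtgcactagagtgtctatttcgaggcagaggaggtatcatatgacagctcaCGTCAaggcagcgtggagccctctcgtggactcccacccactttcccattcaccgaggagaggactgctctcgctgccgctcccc
Gdnf, chr15:7809798-7810097, plus strand: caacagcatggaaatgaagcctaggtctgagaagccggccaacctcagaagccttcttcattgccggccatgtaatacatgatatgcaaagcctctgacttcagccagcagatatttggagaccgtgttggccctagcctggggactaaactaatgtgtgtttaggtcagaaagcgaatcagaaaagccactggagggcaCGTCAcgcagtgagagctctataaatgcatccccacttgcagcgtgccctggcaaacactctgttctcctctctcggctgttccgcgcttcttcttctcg
In both windows the match lies on the opposite strand, so that the printed strand reads CGTCA, at -35 bases from the start in Bdnf and at -50 bases in Gdnf. TGACG occurred in 20.8% of all 32851 promoter windows of 300 bases, and in 2 of the 15 windows of these genes. The full element TGACGTCA was in none of the 15, against 1.79% of all windows. The counts are per gene, so which Bdnf or Gdnf start was used was not measured. The printed Gdnf window ends at 7810097, before the start of Gdnf at 7810846 in GENCODE M21, the annotation used for gene positions.

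Of the 9 genes, all 9 passed the low-count filter, 5 were higher in SMA, 1 was lower and 3 did not pass, with edgeR's quasi-likelihood F-test and Benjamini-Hochberg adjusted p-values over 15873 genes, at 0.05. In the same test 54.9% of all genes passed, 27.7% higher and 27.2% lower. The 6 calls among 9 genes are thus near the background share. Bdnf rose 4.88-fold, Gdnf 2.02-fold and Ncam1 1.96-fold, while Ret fell to 0.366 of its WT level. SMA and WT libraries did not overlap for these 4 of the 9 genes, which is near the share among all genes, 44.2%. The median log2 fold change of the 9 genes was 0.40, and that of all genes tested was 0.0060. Calls for Cntf and Ngfr were the least stable: the number that rose was 3 without WT 5, 3 without SMA 1, 3 without SMA 3, 3 without WT 5 and SMA 3 together, and 3 with sex as a covariate.

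**Figure D1:**
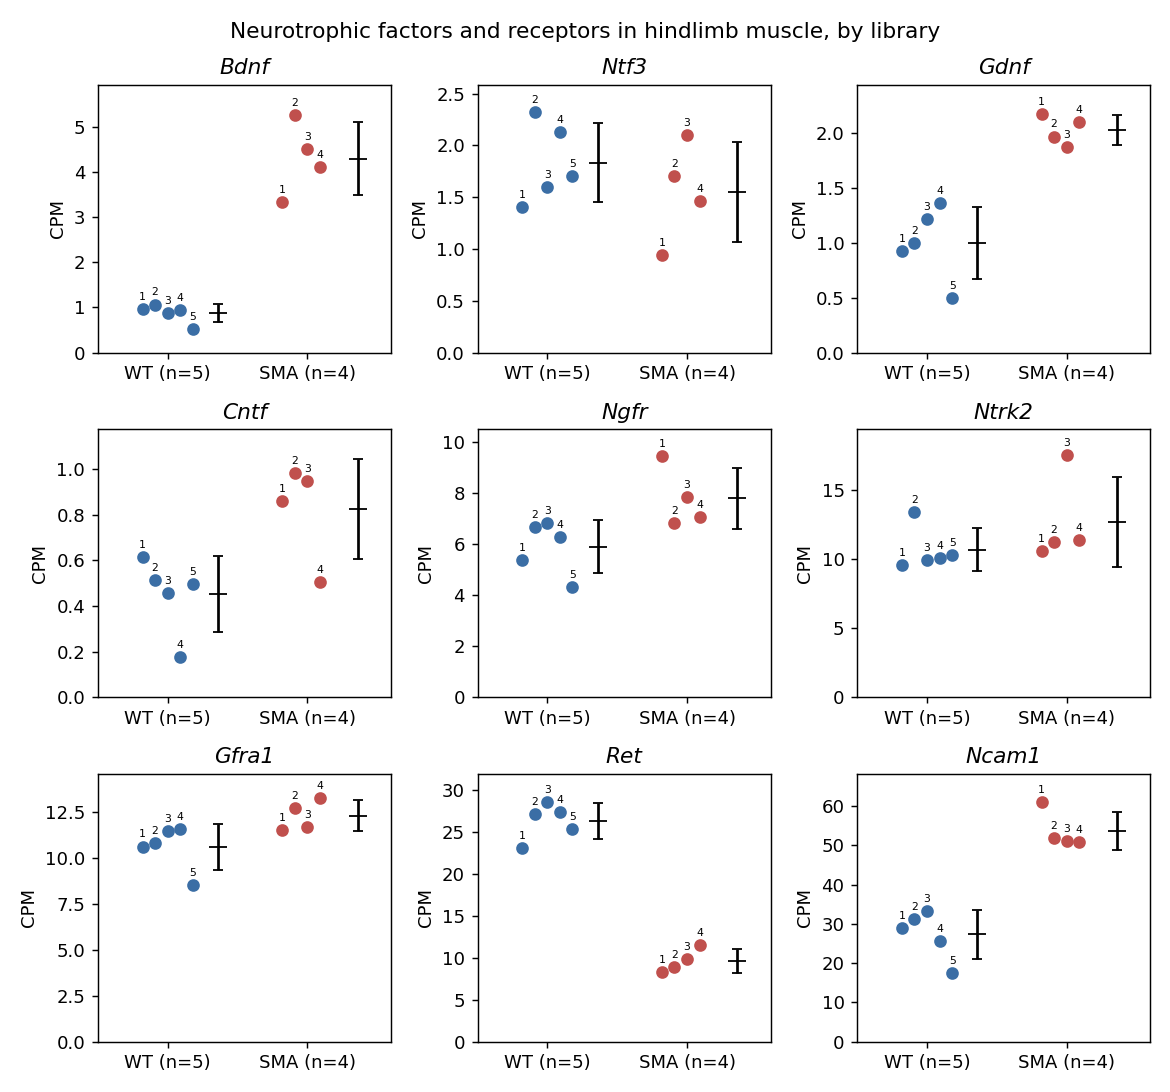
CPM of each gene (y axis, from 0) in the 5 WT and 4 SMA libraries (x axis), numbered by replicate, with the group mean and SD beside the points. Bdnf, Gdnf and Ncam1 lie higher in every SMA library and Ret lower, whereas the groups overlap for the other 5 genes.

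Bdnf (chromosome 2, 109674700 to 109727007, plus strand, mm10) was a weakly expressed gene in WT muscle. It had 22, 33, 23, 27 and 15 counts in WT libraries 1 to 5 and 116, 197, 161 and 146 counts in SMA libraries 1 to 4. As CPM this was 0.967, 1.06, 0.877, 0.944 and 0.532 in WT and 3.32, 5.25, 4.50 and 4.10 in SMA. The lowest SMA library stood about 3 times above the highest WT library, and WT 5 was the lowest of all. The rise was 2.29 ± 0.21 log2 units (SE), from 0.877 ± 0.204 to 4.29 ± 0.803 CPM (SD, n = 5 and 4), with an adjusted p of 4.07e-06 by edgeR. Among the 4393 genes that rose, it was the 184th largest rise. Its log2 fold change stayed between 2.12 and 2.51 over 18 alternative analyses.

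Gdnf (chromosome 15, 7810846 to 7837575, plus strand) was also weakly expressed in WT muscle. It had 21, 31, 32, 39 and 14 counts in WT libraries 1 to 5 and 76, 74, 67 and 75 counts in SMA libraries 1 to 4. Its CPM was 0.923, 1.0, 1.22, 1.36 and 0.496 in WT and 2.18, 1.97, 1.87 and 2.11 in SMA. The SMA libraries were close to each other and all were above WT 4, the highest WT library. Gdnf rose by 1.02 ± 0.25 log2 units (SE), and edgeR's adjusted p was 0.00417. It passed in all 18 alternatives, with adjusted p-values up to 0.0292.

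Ntf3 (chromosome 6, 126101412 to 126166910, minus strand) did not follow the other ligand genes. It had 32, 72, 42, 61 and 48 counts in WT and 33, 64, 75 and 52 counts in SMA. Its CPM was 1.41, 2.32, 1.60, 2.13 and 1.70 in WT and 0.945, 1.70, 2.10 and 1.46 in SMA. The groups overlapped, although SMA 1 lay below every WT library. The log2 fold change was -0.24 ± 0.24 (SE), with a 95% interval from -0.78 to 0.29 and an adjusted p of 0.418 by edgeR. Over the alternatives the log2 fold change ran from -0.45 to -0.012, and Ntf3 passed in none of the 18.

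Cntf (chromosome 19, 12763660 to 12765632, minus strand) had the fewest counts of the 9 genes. There were 14, 16, 12, 5 and 14 counts in WT and 30, 37, 34 and 18 counts in SMA. Its CPM was 0.616, 0.516, 0.457, 0.175 and 0.496 in WT and 0.859, 0.985, 0.950 and 0.505 in SMA, so SMA 4 lay among the WT libraries and WT 4 was far below the others. Cntf rose by 0.87 ± 0.33 log2 units (SE), and edgeR's adjusted p was 0.0399. It lost the call in 11 of 17 alternatives, among them each of 7 libraries left out in turn. The adjusted p without SMA 2 was 0.107, without SMA 1 0.0843, without SMA 3 0.0748, without WT 3 0.0663, without WT 4 0.0635, without WT 2 0.0536 and without WT 5 0.0510. The annotated span of Zfp91 on the same strand covers all of Cntf, so reads may have been divided between them or set aside. Zfp91 itself had 93.4 to 117 CPM in WT and 91.8 to 105 CPM in SMA, and the fused transcript Zfp91Cntf, listed apart, had at most 2 counts in any library.

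Other ligands of the same receptors moved in different directions. Ntf5, which encodes neurotrophin-4 and thus the other TrkB ligand, had 7.43, 4.61, 6.67, 6.78 and 8.36 CPM in WT and 2.00, 2.58, 2.43 and 2.33 CPM in SMA, with no overlap. It fell by 1.53 ± 0.17 log2 units (SE), and edgeR's adjusted p was 1.76e-05. Nrtn, the gene of the GDNF relative neurturin, rose by 0.89 ± 0.29 from a mean of 0.597 CPM in WT to 1.11 CPM in SMA, with an adjusted p of 0.0214 by edgeR. That call was lost without WT 2, at 0.0518, without SMA 1, at 0.0604, and with sex as a covariate, at 0.0919.

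The balance between ligand genes can be read within a library, where no scaling is needed. These ratios were chosen with the values in view and are given without a test. Bdnf counts per Ntf5 count were 0.130, 0.231, 0.131, 0.139 and 0.0636 in WT libraries 1 to 5 and 1.66, 2.03, 1.85 and 1.76 in SMA libraries 1 to 4. The ratio was thus higher in every SMA library than in any WT library. Bdnf counts per Ntf3 count were 0.490 ± 0.139 in WT and 2.89 ± 0.573 in SMA (SD, n = 5 and 4), and Bdnf counts per Gdnf count 0.919 ± 0.195 and 2.13 ± 0.502. Neither pair overlapped between groups. Gene length enters all these ratios equally in every library, so they compare libraries and not genes. Per kilobase of exon, Ntf5 stayed above Bdnf in SMA on average, at 0.881 against 0.690 CPM per kilobase.

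**Figure D2:**
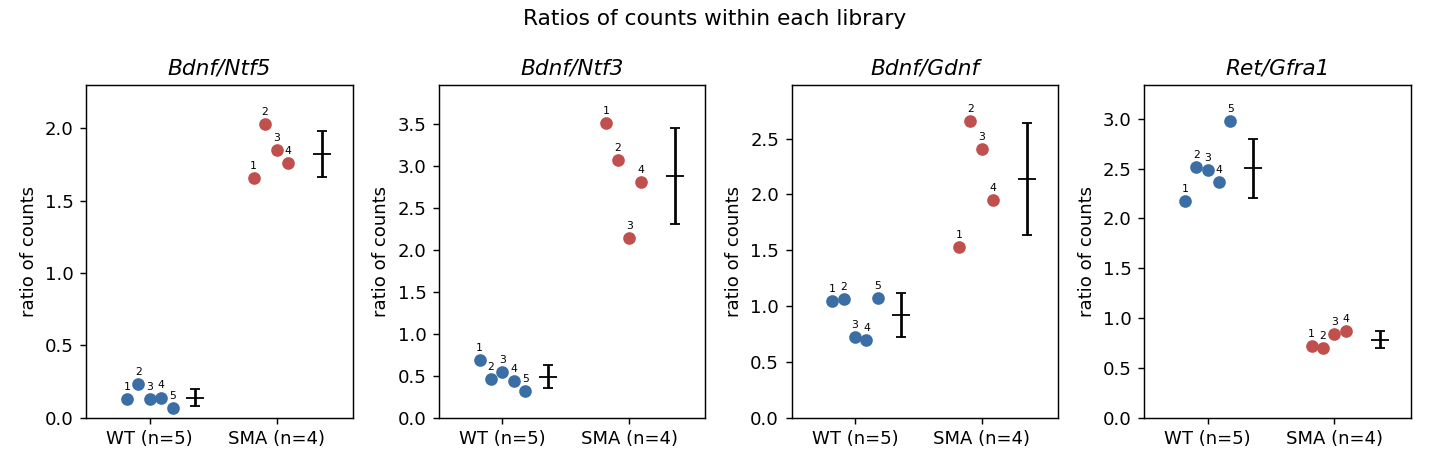
Ratio of the counts of a pair of genes (y axis, from 0) within each of the 5 WT and 4 SMA libraries (x axis), numbered by replicate, with group mean and SD. The 3 ratios with Bdnf on top are higher in every SMA library, and Ret per Gfra1 falls from 2.17 to 2.98 in WT to 0.701 to 0.867 in SMA.

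Among the receptor genes, Ret (chromosome 6, 118151745 to 118197718, minus strand) was the 1 that fell. It had 23.1, 27.2, 28.6, 27.4 and 25.4 CPM in WT and 8.27, 8.95, 9.81 and 11.5 CPM in SMA, backed by 289 to 842 counts per library. The highest SMA library was at about 50% of the lowest WT library, and neither group had a library far from the others. Ret fell by 1.45 ± 0.11 log2 units (SE), from 26.3 ± 2.12 to 9.64 ± 1.40 CPM (SD, n = 5 and 4), with an adjusted p of 7.87e-07 by edgeR. The fall ranked 457th among the 4319 genes that fell, and it passed in all 18 alternatives with log2 fold changes from -1.55 to -1.22.

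Gfra1 (chromosome 19, 58235604 to 58455909, minus strand), which presents GDNF to RET, did not fall with it. Its CPM was 10.6, 10.8, 11.5, 11.6 and 8.54 in WT and 11.5, 12.8, 11.7 and 13.3 in SMA, and the lowest SMA libraries lay beside the highest WT libraries. The log2 fold change was 0.21 ± 0.10 (SE), with a 95% interval from -0.0096 to 0.44 and an adjusted p of 0.0961 by edgeR. Scaling to total counts alone gave 0.44 with an adjusted p of 0.0160 by edgeR. Within libraries, Ret counts per Gfra1 count were 2.17, 2.51, 2.48, 2.37 and 2.98 in WT and 0.717, 0.701, 0.840 and 0.867 in SMA. Gdnf counts per Gfra1 count went the other way, at 0.0922 ± 0.0226 in WT and 0.166 ± 0.0156 in SMA (SD, n = 5 and 4).

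The remaining GDNF family list held 10 genes, of which 8 were tested, 1 rose, 2 fell and 5 did not pass, with a median log2 fold change of -0.014. Gfra2, the co-receptor for neurturin, was among those that did not pass, at 4.85 ± 0.723 CPM in WT and 5.30 ± 0.409 CPM in SMA (SD, n = 5 and 4). The genes that fell, Dok5 and Dok4, encode adaptors that dock on RET. Dok5 fell from 18.2 ± 3.70 to 8.14 ± 0.461 CPM and Dok4 from 23.9 ± 3.36 to 12.5 ± 3.45 CPM (SD, n = 5 and 4), and the adjusted p-values from edgeR were 4.65e-05 and 0.000468.

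Ngfr (chromosome 11, 95568818 to 95587735, minus strand), the p75 gene, was slightly higher in SMA. Its CPM was 5.36, 6.65, 6.82, 6.26 and 4.32 in WT and 9.45, 6.82, 7.83 and 7.05 in SMA. SMA 2 and WT 3 were level, while SMA 1 was the highest library and WT 5 the lowest. Ngfr rose by 0.40 ± 0.15 log2 units (SE), and edgeR's adjusted p was 0.0372. The call was lost in 8 of 18 alternatives, among them at 0.136 without SMA 1, 0.0793 without WT 1, 0.0625 without WT 5, 0.0564 without SMA 3, 0.0752 without both WT 5 and SMA 3, 0.0521 with no low-count filter, and 0.246 with sex as a covariate.

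Ntrk2 (chromosome 13, 58806569 to 59133970, plus strand), the TrkB gene, had 1 library in each group well above the others. Its CPM was 9.59, 13.4, 9.95, 10.1 and 10.3 in WT and 10.6, 11.3, 17.5 and 11.4 in SMA. Without SMA 3 the log2 fold change was 0.052, without WT 2 it was 0.34 and under total-count scaling 0.49, and none of these passed. The log2 fold change was 0.25 ± 0.16 (SE), with a 95% interval from -0.094 to 0.59 and an adjusted p of 0.200 by edgeR. Isoforms with and without the kinase domain, both known for this gene, are not separated by counts per gene.

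The TrkC gene Ntrk3 had its highest values in the same libraries as Ntrk2. Its CPM was 2.90, 4.58, 3.20, 3.18 and 3.33 in WT and 3.72, 4.47, 6.51 and 3.93 in SMA, with WT 2 and SMA 3 on top of their groups. Its difference of 0.43 ± 0.19 log2 units had an edgeR adjusted p of 0.0735, and it passed without WT 2, at 0.0272, and under total-count scaling, at 0.0267. SMA 3 also held 275 of the 281 counts of Snap25, a nerve terminal gene, and 480 counts of the axon growth gene Gap43 against 60 to 74 in the other SMA libraries. Gap43 had 47 to 166 counts in WT, with WT 2 the highest. Its log2 fold change was 0.24 ± 0.58 with all libraries and -1.30 without WT 5 and SMA 3, where it passed as lower in SMA with an edgeR adjusted p of 2.01e-05. From the list of Schwann cell injury genes given below, SMA 3 also held 218 of 274 counts of Gfap, 77 of 103 of Olig1 and 47 of 102 of Sox2. Snap25, Gap43, Gfap, Olig1 and Sox2 were named after their values were seen. What they share with the Ntrk2 and Ntrk3 values was not tested. Of 9 motor neuron markers, Chat, Mnx1 and Slc18a3 had 0 counts in all 9 libraries, and the summed level of the list was 1.13 to 2.45 CPM in WT, 12.0 CPM in SMA 3 and from 1.20 to 1.80 CPM in SMA 1, 2 and 4.

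The neurotrophin list outside the 9 genes held 17 genes, of which 14 were tested, 6 rose, 4 fell and 4 did not pass, with a median log2 fold change of 0.28. Furin, whose product cleaves proneurotrophins, rose by 0.57 ± 0.11 on the log2 scale, from 56.7 to 84.0 CPM. Frs2, an adaptor of receptor kinases including the Trk family, rose by 0.62 ± 0.10, from 20.4 to 31.3 CPM. Their adjusted p-values were 0.000912 and 0.000364 by edgeR. Pcsk6, which encodes another enzyme that cleaves proproteins, was named after its values were seen and went the other way. It fell by 0.64 ± 0.15 log2 units, from 38.1 to 24.4 CPM, with an adjusted p of 0.00338 by edgeR, or 0.0648 under total-count scaling. Under total-count scaling 8 of the list rose and 1 fell.

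In the list of CNTF relatives and their receptors, 13 of 15 genes were tested, 4 rose, 3 fell and 6 did not pass, with a median log2 fold change of 0.22. Cntfr, the specific CNTF receptor chain, had 18.0 ± 2.66 CPM in WT and 14.9 ± 1.56 CPM in SMA (SD, n = 5 and 4), a difference of -0.27 ± 0.12 log2 units at an edgeR adjusted p of 0.0695, or 0.0269 without WT 2. Under total-count scaling its log2 fold change was -0.025. Lifr, a signalling chain that CNTF shares with leukaemia inhibitory factor, rose by 0.54 ± 0.065, from 58.1 to 84.3 CPM. Il6ra, the interleukin 6 receptor gene, rose by 3.01 ± 0.30. The adjusted p-values of Lifr and Il6ra were 3.36e-05 and 8.09e-06 by edgeR. Under total-count scaling 8 genes of the list rose and 3 fell.

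**Figure D3:**
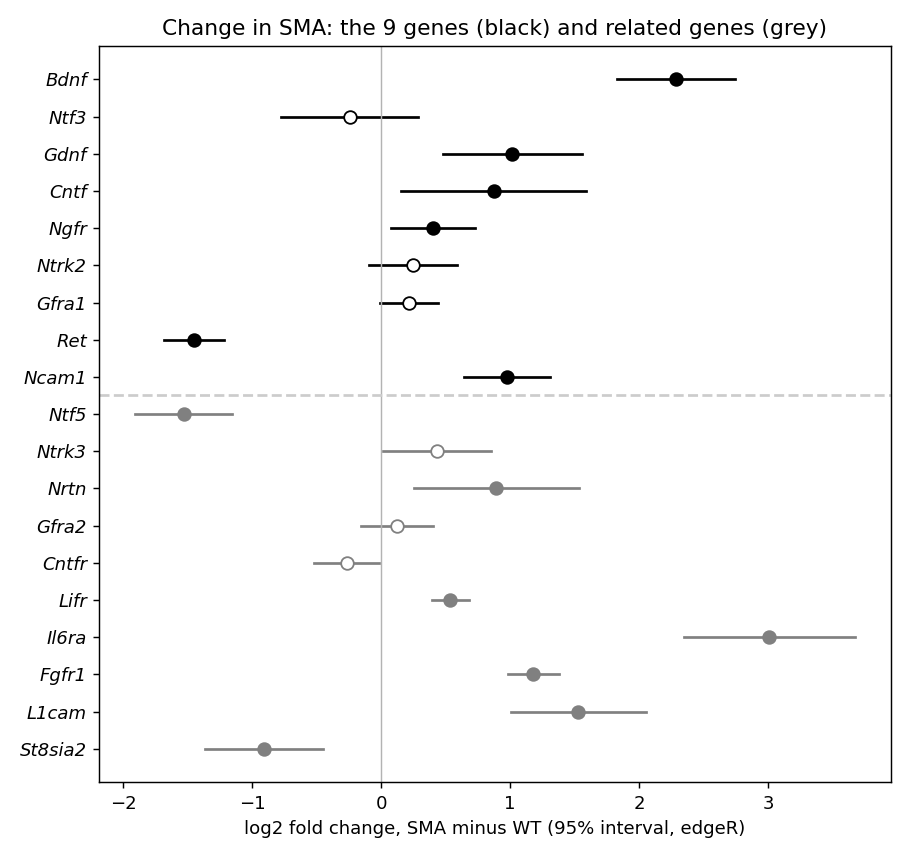
Log2 fold change of SMA minus WT (x axis) with its 95% interval by edgeR for the 9 genes (black) and 10 related genes (grey); filled points had an adjusted p below 0.05. Bdnf stands at 2.29 and Ret at -1.45, while the intervals of Ntf3, Ntrk2 and Gfra1 include 0.

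Ncam1 (chromosome 9, 49502136 to 49798925, minus strand) encodes the neural cell adhesion molecule, which in adult muscle is found at the synapse and on satellite cells and spreads over fibres that lose their nerve. It had 29.0, 31.3, 33.4, 25.7 and 17.5 CPM in WT and 61.0, 52.0, 51.1 and 50.9 CPM in SMA. The lowest SMA library was about 1.5 times the highest WT library, SMA 1 lay above 3 closely grouped SMA libraries, and WT 5 lay below the other WT libraries. Ncam1 rose by 0.97 ± 0.15 log2 units (SE), from 27.4 ± 6.21 to 53.8 ± 4.83 CPM (SD, n = 5 and 4), with an adjusted p of 0.000222 by edgeR. It passed in all 18 alternatives, with log2 fold changes from 0.85 to 1.19. The antisense gene Gm11149 within it had at most 3 counts in a library. Annotated antisense genes also overlap Bdnf, Ntrk2 and Gfra1, and because the strand setting of the counting is not stated, reads of such partners cannot be told apart from theirs.

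Of 9 relatives and partners of NCAM, 8 were tested, 4 rose, 2 fell and 2 did not pass, with a median log2 fold change of 0.46. Fgfr1, a fibroblast growth factor receptor that NCAM can engage, rose by 1.18 ± 0.090 on the log2 scale, from 104 ± 11.7 to 236 ± 4.91 CPM (SD, n = 5 and 4). The neural adhesion gene L1cam rose by 1.53 ± 0.24, from 2.32 to 6.75 CPM. St8sia2, which encodes an enzyme that adds polysialic acid to NCAM, fell by 0.91 ± 0.21, from 7.26 to 3.86 CPM. The adjusted p-values of Fgfr1, L1cam and St8sia2 were 1.02e-06, 0.000229 and 0.00307 by edgeR. Ncam1 and St8sia2 thus moved apart in the same libraries. St8sia4, the other polysialyltransferase gene of the list, did not pass, with an adjusted p of 0.292 by edgeR. It had 9.14 ± 1.60 CPM in WT and 8.10 ± 0.941 CPM in SMA (SD, n = 5 and 4).

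Lists of denervation genes and of other trophic factors were read in the same fit. Of 10 denervation genes, 5 rose, 1 fell and 4 did not pass, with a median log2 fold change of 0.60, and the acetylcholine receptor genes Chrnd and Chrna1 and the synaptic kinase gene Musk rose by 1.20 ± 0.14, 1.05 ± 0.16 and 0.87 ± 0.14 on the log2 scale. The gene that fell, Myog, which encodes the muscle transcription factor myogenin, was named after its values were seen. It fell by 0.41 ± 0.087 log2 units from 123 to 92.7 CPM, with no overlap, but differed by -0.17 with an edgeR adjusted p of 0.084 under total-count scaling. Chrng, Chrne, Runx1 and Gadd45a did not pass. Under total-count scaling 7 of the list rose and 0 fell, and without WT 5 and SMA 3 5 rose and 2 fell. Of 12 other trophic factor genes, 9 were tested, 3 rose, 4 fell and 2 did not pass, and 3 rose and 0 fell under total-count scaling. Igf2, the fetal growth factor gene, rose from 1640 ± 394 to 3165 ± 536 CPM (SD, n = 5 and 4). Fgf2 rose by 1.28 ± 0.40 on the log2 scale, with an adjusted p of 0.0160 by edgeR, and missed the threshold by limma-voom, at 0.0722. Vegfa, the vascular growth factor gene, fell by 0.71 ± 0.18, with an adjusted p of 0.00504 by edgeR, or 0.0556 under total-count scaling.

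Schwann cells are a known source of CNTF, GDNF and p75, so their genes are given beside these results. Of 16 nerve injury genes of Schwann cells, 12 were tested, 4 rose, 3 fell and 5 did not pass, with a median log2 fold change of 0.077. The neuregulin receptor genes Erbb2 and Erbb3 rose by 1.10 ± 0.10 and 1.35 ± 0.14 on the log2 scale, and the Schwann cell transcription factor gene Pou3f1 rose from 3.07 ± 0.348 to 6.15 ± 1.22 CPM (SD, n = 5 and 4). The 3 genes that fell, named here after their values were seen, were the matrix gene Tnc, by 1.82 ± 0.35, the stress-induced transcription factor gene Atf3, by 1.43 ± 0.37, and the chemokine gene Ccl2, by 1.11 ± 0.34 log2 units. Atf3 lost its call with sex as a covariate, and Ccl2 without SMA 1 and without WT 5 and SMA 3 together. Jun, which directs the repair state, was chosen after its values were seen and differed by -0.64 ± 0.34 log2 units at an edgeR adjusted p of 0.127. Its level in WT 5 was 139 CPM against 32.4 to 62.3 CPM in the other WT libraries, and its log2 fold change was -0.085 without WT 5 and SMA 3 and -0.81 without WT 4, where it passed with an edgeR adjusted p of 0.0399. Of 10 Schwann cell markers, 9 rose and 0 fell, and their summed level was 414 to 954 CPM in WT and 1071 to 2395 CPM in SMA. The lowest Schwann sum was in WT 5, which was also the lowest library for Bdnf, Gdnf, Ngfr, Gfra1 and Ncam1. WT 5 also had the lowest satellite cell sum of all libraries, at 124 CPM. Its fibroblast and macrophage sums, 2963 and 83.2 CPM, were the lowest of WT. Its muscle fibre, mural cell and adipocyte sums were the highest of WT. Within SMA, SMA 4 had the lowest sum and the lowest Cntf level. SMA 1, with a sum of 2276 CPM, had the highest Ngfr and Ncam1 levels and the lowest Bdnf level. SMA 3 had the highest sum, at 2395 CPM. Its Ngfr level of 7.83 CPM was below SMA 1, and its Ncam1 level of 51.1 CPM was below SMA 1 and SMA 2. WT 1 had the highest WT sum, 954 CPM, and its Ngfr level of 5.36 CPM was below all other WT libraries except WT 5. These libraries were picked after the values were seen. Of 8 satellite cell markers, 5 rose and 1 fell, with sums of 124 to 154 CPM in WT and 186 to 223 CPM in SMA. Fibroblast markers numbered 1 higher and 3 lower of 5, macrophage markers 0 and 4 of 6, endothelial markers 0 and 1 of 5, and mural cell markers 0 and 3 of 5. Adipocyte markers numbered 1 higher and 2 lower of 5, among the latter the brown fat gene Ucp1, named after its values were seen, at 11.3 to 119 CPM in WT and 0.315 to 1.93 CPM in SMA. Muscle fibre markers numbered 0 higher and 7 lower of 8. The part of all these cells in the values of Bdnf, Gdnf, Cntf, Ngfr and Ncam1 was not tested.

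Levels of different genes were compared as CPM per kilobase of exon, with exon lengths from GENCODE M21. In WT the order was Ret at 3.90 ± 0.313, Ncam1 at 3.16 ± 0.717, Gfra1 at 1.94 ± 0.225, Ngfr at 1.71 ± 0.301, Ntf3 at 1.07 ± 0.223, Ntrk2 at 0.553 ± 0.0809, Cntf at 0.421 ± 0.154, Gdnf at 0.272 ± 0.0902 and Bdnf at 0.141 ± 0.0329 CPM per kilobase (SD, n = 5). Each gene overlapped its neighbour in that order across libraries, apart from Ntf3 and Ntrk2, which did not. In SMA the order was Ncam1 at 6.21 ± 0.558, Ngfr at 2.26 ± 0.345, Gfra1 at 2.25 ± 0.154, Ret at 1.43 ± 0.207, Ntf3 at 0.905 ± 0.281, Cntf at 0.769 ± 0.205, Bdnf at 0.690 ± 0.129, Ntrk2 at 0.658 ± 0.168 and Gdnf at 0.553 ± 0.0369 CPM per kilobase (SD, n = 4). Ret went from the first place to the fourth, and Bdnf from the last place to the seventh, in a set of 5 genes whose neighbours overlapped. In SMA, Ncam1 stood apart from Ngfr and Gfra1 from Ret, and the lowest Ret and highest Ntf3 values met at 1.22. Ntf5 stood at 2.55 ± 0.521 in WT and 0.881 ± 0.0924 CPM per kilobase in SMA. The exon length of Ntrk2, 19292 bases over all its isoforms, makes its level per kilobase low if the shorter isoforms dominate.

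**Figure D4:**
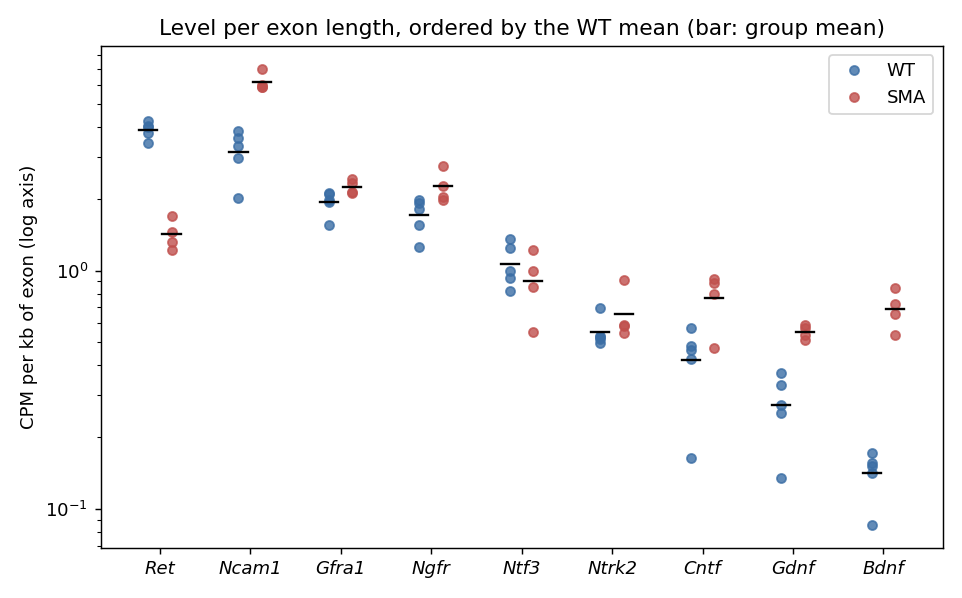
CPM per kilobase of exon (y axis, log scale) of the 9 genes, ordered by the WT mean, with a point per library (5 WT, 4 SMA) and a bar at each group mean. Bdnf has the lowest level in WT, at 0.141, and reaches 0.690 in SMA, while Ret goes from 3.90 to 1.43.

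Genes with the most similar profile over the 9 libraries are given as a description, with Pearson's r of log2 CPM. Over all 9 libraries these were Mtus2 (r = 0.995) and AK040808 (0.992) for Bdnf, Rassf7 (0.995) and Mhrt (0.987) for Gdnf, Zfp362 (0.996) and Slc7a5 (0.995) for Ncam1, and 5430425K12Rik (0.994) and Pycr1 (0.993) for Ret. The difference between the groups enters these values. After the group means were subtracted, the closest genes were Prrx2 (0.972) for Bdnf, Rassf7 (0.984) for Gdnf, Arhgef16 (0.994) for Ncam1 and Tnfrsf22 (0.952) for Ret. For Ntrk2 they were Nnat (0.976) and its relative Ntrk3 (0.974). Among the 9 genes themselves, the closest pairs within groups were Gdnf with Gfra1 (0.891) and Ngfr with Ncam1 (0.849), and WT 5 was the lowest WT library for all 4 of these genes.

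**Figure D5:**
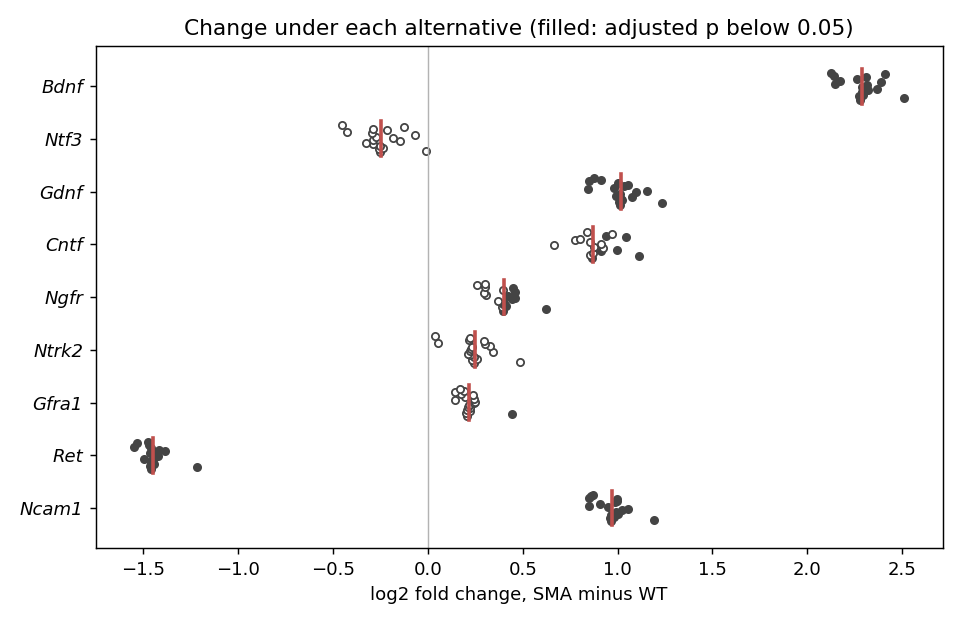
Log2 fold change of each of the 9 genes (x axis) under up to 18 alternative analyses (points, filled where the adjusted p was below 0.05), with the value used throughout as a red line. Points of Bdnf, Gdnf, Ret and Ncam1 are filled in every alternative, and those of Cntf and Ngfr are a mixture.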

How the data were processed

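Gene expression was measured in 5 WT and 4 SMA libraries. Per the labels' protocols, 200 ng of total RNA entered a stranded mRNA preparation and was sequenced as paired reads of 75 bases. The submitters' processing notes name DESeq2 1.16.1, HTSeq 0.9.1 and mm10 without their roles. No source used here gives the aligner, annotation or strand setting. The authors deposited raw counts per gene, and a second table of signal, which is the authors' counts divided by 1 size factor per library (0.734 to 1.23). It was used only to recompute these factors.

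Counts were tested in R 4.3.3 with edgeR 4.0.16: filterByExpr (minimum count 10), TMM scaling (trimmed mean of M values), a quasi-likelihood fit over 9 libraries with group as the 1 term, and Benjamini-Hochberg adjustment over 15873 genes. SE is the log2 fold change divided by the square root of F. Log2 CPM used a prior count of 2. Alternatives used DESeq2 1.42.0 and limma 3.58.1. No library pair of a group agreed within sampling noise (chi-square per degree of freedom at least 11.25). The fit was first tested on simulated data. The 9 genes, the related lists and the tests were chosen with earlier results of these data known. Named genes are the 9, the 3 with the lowest adjusted p of each related list, receptors that partner the 9, and the 2 most alike per gene. Some genes that this rule names are not reported here. Gene positions and exon lengths are from GENCODE M21 (mm10).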

Additional observations from a re-analysis of the deposited data

Results flagged for a closer look

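Values of 3 libraries stood apart from their groups in a check of the highest and lowest value of each of the 9 genes in each group, by Dixon's gap criterion. Ntrk2 in WT 2 had 13.4 CPM against 9.59 to 10.3 in the other WT libraries, and Ntrk2 in SMA 3 had 17.5 CPM against 10.6 to 11.4 in the other SMA libraries. Ncam1 in SMA 1 had 61.0 CPM against 50.9 to 52.0 in the other SMA libraries. Chance gives about 1 such result in 20 groups, and 18 groups were checked. Without SMA 1 the log2 fold change of Ncam1 was 0.91, and without SMA 3 that of Ntrk2 was 0.052.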

How the results depend on the processing

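Over 18 alternatives, 141 of 161 member values kept their direction and their side of the threshold, 19 lost the call, all of Cntf or Ngfr, 1 gained it, and 0 reversed. The number of the 9 genes that rose was 5, and became 3 with no low-count filter, 3 with sex as a covariate and 3 without WT 5 and SMA 3 together. With single libraries left out it ranged from 3 to 5. The number that fell was 1 throughout. Total-count scaling moved the median over all genes by 0.234 log2 units and gave 2164 genes that fell against 4319, so that 74.7% of calls were higher against 50.4%. Cntf could not be tested with a minimum mean of 1 CPM. Of 448 values of 25 other named genes, 440 kept direction and call and 0 reversed. Most of the 25 were picked for a low adjusted p in the fit used throughout, so much of this stability followed from the choice. List genes outside the 25 were less stable in places. Gap43 reversed in 5 of 17 alternatives, and Ptn, Igf1 and Sh2b1 changed call in several. Without WT 5 and SMA 3, the neurotrophin list had 5 genes higher and 3 lower, the GDNF list 1 and 3, the CNTF list 6 and 3, the other trophic factors 4 and 4, the fibroblast markers 1 and 4, the macrophage markers 0 and 3 and the adipocyte markers 1 and 1.

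Replicate numbers gave no sign of pairing the samples: deviations of same-numbered WT and SMA libraries correlated at 0.118, -0.0055, -0.048 and 0.0971. Such correlations over few libraries cannot exclude a pairing, and the labels give no litter. With the number as a block over replicates 1 to 4, 4 of the 9 genes rose, 1 fell, and Ngfr had an edgeR adjusted p of 0.126. Over all genes 3973 rose and 3899 fell, and not every library correlated best with its own number. Counts of 5 to 39 per library for Bdnf, Gdnf and Cntf in WT limit the precision of their WT levels.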
